A study of Danio rerio with 14 samples.

Results

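Sorted sox10+ and mylz2+ cells from the heads of zebrafish larvae without the psmb1 mutant phenotype were compared at 72 hpf (hours postfertilization). Members were all libraries labelled wild-type/heterozygous, 4 of sox10+ cells and 4 of mylz2+ cells, 8 of the 14 libraries in the series. The 6 psmb1 mutant libraries were not used. Both cell populations came from pooled wild-type and psmb1 heterozygous larvae, so each library mixes those genotypes and a pool of dissected heads. The sox10+ cells carried sox10:kaede, in which the sox10 promoter drives the fluorescent protein Kaede, and 7000 cells were sorted per library. The mylz2+ cells carried mylz2:mCherry, in which the promoter of a fast muscle myosin light chain gene drives mCherry, and 1500 cells were sorted per library. Cell type, reporter line, number of sorted cells and count table are the same division of the libraries and cannot be told apart. The labels do not say whether replicates came from separate clutches, so p-values measure the spread between these pooled samples.

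Cranial neural crest cells migrate into the pharyngeal arches and give rise to most of the cartilage of the larval face, as well as to pigment cells, glia of the cranial nerves and connective tissue. Chondrocytes differentiate under SOX9, with SOX5 and SOX6, and secrete a matrix of type II, IX and XI collagens and sulfated proteoglycans. Cranial muscle comes instead from arch and head mesoderm, in which MYOD1 and related factors switch on the proteins of the sarcomere, the contractile unit of filaments and Z-discs that fills a muscle fibre. Reporters driven by sox10 are not limited to the crest, since the inner ear also uses this gene.

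Both populations carried the transcripts of their own reporter's gene. SOX10, a transcription factor of the neural crest and its derivatives, was at 767, 766, 741 and 798 CPM in sox10+ libraries 1 to 4, against 3.30, 0.483, 8.35 and 2.22 CPM in mylz2+ libraries 1 to 4. CPM here means counts per 1000000 counts of the library after TMM scaling, which sets libraries to a common level on genes between the extremes. MYL11 (ENSDARG00000053254), a fast skeletal myosin light chain, was at 253, 60.7, 53.2 and 103 CPM in sox10+ libraries, against 58558, 79680, 64852 and 59316 CPM in mylz2+ libraries. The groups did not overlap for either gene, and the sox10+ level of the myosin light chain was highest in replicate 1. The log2 fold change, sox10+ over mylz2+ throughout, was 7.74 ± 0.81 (SE) for SOX10 and −9.12 ± 0.68 for MYL11, and it was 8.56 for SOX10 without mylz2+ replicate 3 and −9.80 for MYL11 without sox10+ replicate 1. The defining chondrocyte markers SOX9 and COL2A1 were high in sox10+ libraries and the defining muscle markers MYOD1, actc1b and ckma in mylz2+ libraries, as given below. Symbols were assigned by identifier, many in their human form, and an identifier follows where several zebrafish genes share one symbol.

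The counts summed to between 54824619 and 62057318 in sox10+ libraries and between 69357630 and 78521766 in mylz2+ libraries. Counts were concentrated in fewer genes in muscle: 412 to 620 genes held 50% of the counts of a sox10+ library, and 61 to 82 genes those of a mylz2+ library. Spearman's rho, taken over genes and so not over independent units, was 0.915 to 0.947 between sox10+ libraries, 0.935 to 0.946 between mylz2+ libraries and 0.808 to 0.861 between the cell types. Sox10+ replicate 1 held more muscle transcripts than the other sox10+ libraries, and mylz2+ replicate 4 more of some cartilage transcripts than the other mylz2+ libraries. In bulk samples, fewer cells of a type and less RNA per cell cannot be told apart.

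Of 32520 genes, 20241 passed the filter on low counts, and 8926 of these (44.1%) differed between sox10+ and mylz2+ cells at an adjusted p under 0.05 by the quasi-likelihood test of edgeR, adjusted after Benjamini and Hochberg. Levels were higher in sox10+ cells for 4440 genes (21.9%) and higher in mylz2+ cells for 4486 (22.2%). The median size of the difference among genes called was 1.99 on the log2 scale, and 560 genes were at least 5 log2 units higher in sox10+ cells and 637 at least 5 higher in mylz2+ cells. The libraries of the cell types did not overlap for 9751 genes (48.2%). This balance between directions rests on how libraries were scaled. When only library totals were used, 10625 genes were higher in sox10+ cells and 1891 in mylz2+ cells, and the median over all genes tested was 1.35 on the log2 scale instead of 0.11. All 4440 genes called higher in sox10+ cells kept that call with library totals, and 1891 of the 4486 called higher in mylz2+ cells did. A further 393 of those 4486 were then called higher in sox10+ cells. Library totals move all log2 fold changes up by nearly the same amount. These counts follow from that move and do not show that calls in sox10+ cells are firmer. Medians of the proteoglycan and proteasome lists are therefore also given relative to that of all genes. Counts of list members called under TMM scaling are to be read beside the 21.9% and 22.2% of all genes called in these directions. Those with library totals are to be read beside 10625 and 1891 of the 20241 genes.

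Transcripts of the cartilage matrix made up a large share of the sox10+ libraries. The 42 genes of this list made up 22.4, 16.6, 15.8 and 18.4% of the counts in sox10+ replicates 1 to 4, against 0.0527, 0.0384, 0.0726 and 0.103% in mylz2+ replicates 1 to 4. Of the 40 members that passed the filter, 37 were higher in sox10+ cells, 0 were higher in mylz2+ cells and 3 were not called. Over all genes, 21.9% were called higher in sox10+ cells. The libraries of the cell types did not overlap for 37 members, beside 48.2% of all genes. The median log2 fold change of the members tested was 7.01, against 0.11 for all genes. COL2A1 (ENSDARG00000069093), the main fibrillar collagen of cartilage, was the most abundant gene of the sox10+ libraries, with 6.12 ± 0.818% of their counts (SD, n = 4), against 0.0101 ± 0.00839% in mylz2+ libraries. It was at 49299, 35491, 33215 and 41840 CPM in sox10+ libraries, against 66.6, 44.4, 184 and 318 CPM in mylz2+ libraries. Every sox10+ library lay above every mylz2+ library, and the mylz2+ values were highest in replicates 3 and 4 (log2 fold change 8.03 ± 0.75, or 8.65 without mylz2+ replicate 4). The second gene with this symbol (ENSDARG00000011407) was also high in sox10+ cells, at 7582 ± 1769 CPM, against 349 ± 68.6 CPM in mylz2+ cells. Its difference was 4.44 ± 0.28 on the log2 scale, with libraries of the cell types that did not overlap.

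MATN1, a matrilin that links collagen and proteoglycan, was at 21853, 13097, 12681 and 19486 CPM in sox10+ libraries, against 5.01, 3.47, 1.57 and 146 CPM in mylz2+ libraries. The mylz2+ level stood out in replicate 4 alone, and the log2 fold change was 8.75 ± 1.68 with that library and 12.27 without it. The type XI collagen genes COL11A1 and COL11A2 were at 10624 ± 3173 and 8785 ± 2609 CPM in sox10+ cells, against 116 ± 48.8 and 27.9 ± 25.7 CPM in mylz2+ cells, and the log2 fold change of COL11A2 was 8.30, or 9.15 without mylz2+ replicate 4. The type IX collagen genes COL9A1, COL9A2 and col9a3 lay at 7672, 7623 and 6445 CPM in sox10+ cells, against 29.7, 31.5 and 28.3 CPM in mylz2+ cells. These 3 genes encode chains of type IX collagen molecules, which coat the type II fibrils, and their log2 fold changes lay between 7.83 and 8.02. COL10A1 (ENSDARG00000101535), which encodes the collagen of hypertrophic chondrocytes, was at 20.6, 0.982, 15.9 and 27.4 CPM in sox10+ libraries, with replicate 2 far below the others, and had no count in any mylz2+ library. Measured on library totals against a floor of 3 counts per library, it was at least 603-fold higher in sox10+ cells. With TMM scaling its bound was smaller, at 8.02 on the log2 scale. The members of this list that were not called were MATN3 (ENSDARG00000069245), chadla and FMOD (ENSDARG00000010294), each with a mean of under 3 CPM in both cell types.

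**Figure D1:**
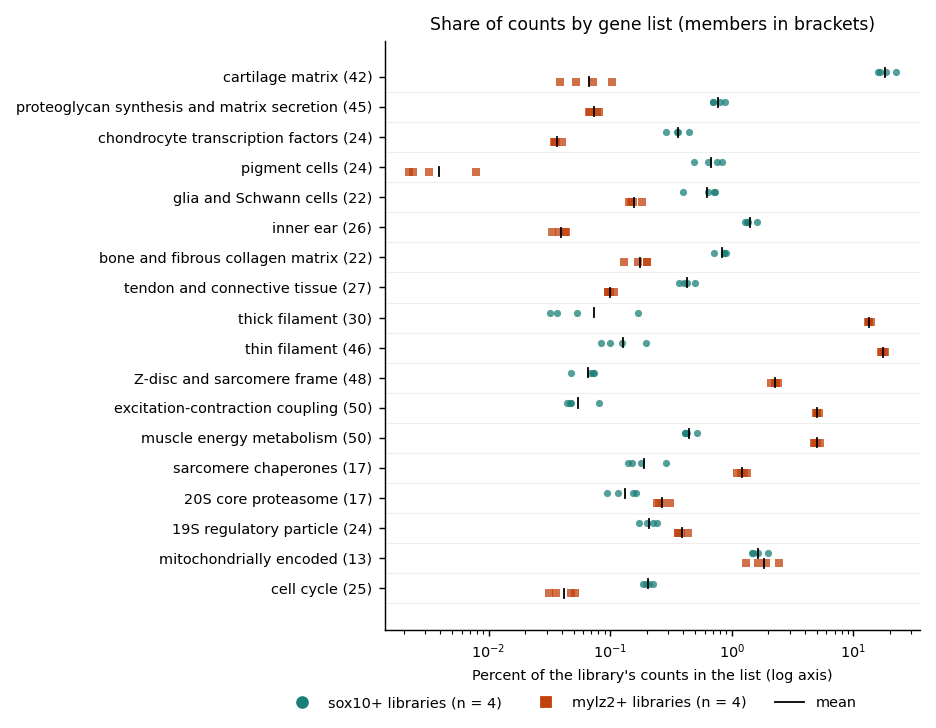
Percent of each library's counts (log axis) held by 18 gene lists, with the number of members in brackets, for 4 sox10+ libraries (circles) and 4 mylz2+ libraries (squares). Cartilage matrix genes held 15.8 to 22.4% of the sox10+ counts and 0.0384 to 0.103% of the mylz2+ counts, and the vertical lines mark the mean of each cell type. The inner ear list includes the type IX collagen gene COL9A1, which made up most of the sox10+ share of that list.

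The regulators of chondrocytes differed in the same direction as the matrix they control, by smaller amounts. Among 24 transcription factors and signals of chondrocytes, 18 were higher in sox10+ cells, 0 were higher in mylz2+ cells and 6 were not called, with a median log2 fold change of 3.81. SOX9 (ENSDARG00000003293), the master regulator of cartilage, was at 174, 137, 124 and 259 CPM in sox10+ libraries, against 7.05, 11, 7.93 and 7.79 CPM in mylz2+ libraries. The other SOX9 copy (ENSDARG00000043923) was at 70.8 ± 25.2 CPM in sox10+ cells, against 10.8 ± 2.72 CPM in mylz2+ cells. Both copies were separated between the cell types in every library, with log2 fold changes of 4.36 ± 0.29 and 2.71 ± 0.29. The SOX9 partners SOX5 and SOX6 were unlike each other in muscle. SOX5 was at 308 ± 75.8 CPM in sox10+ cells, against 20.7 ± 9.62 CPM in mylz2+ cells. SOX6, which also acts in muscle fibre types, was at 341 ± 78.5 CPM in sox10+ cells, against 163 ± 21.2 CPM in mylz2+ cells, a log2 fold change of 1.07 ± 0.20. BARX1, a homeobox factor of arch cartilage, was at 34.8, 15.9, 22.0 and 30.9 CPM in sox10+ libraries, against 2.82, 1.52, 1.3 and 2.18 CPM in mylz2+ libraries, with no overlap. FGFR3, a receptor that restrains chondrocyte growth, was at 590 ± 231 CPM in sox10+ cells, against 200 ± 22.0 CPM in mylz2+ cells, and CREB3L2, a factor of the secretory pathway in chondrocytes, at 196 ± 17.9 CPM, against 16.8 ± 3.75 CPM.

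Among 45 genes that build proteoglycan chains or carry matrix out of the cell, 33 were higher in sox10+ cells, 1 was higher in mylz2+ cells and 11 were not called, with a median log2 fold change of 1.72, or 1.62 above that of all genes. SERPINH1 (ENSDARG00000019949), the chaperone of procollagen, was at 855 ± 117 CPM in sox10+ cells, against 143 ± 34.1 CPM in mylz2+ cells. PAPSS2 (ENSDARG00000056600), which makes the sulfate donor of chondroitin sulfate, was at 348, 268, 231 and 313 CPM in sox10+ libraries, against 10.8, 13.0, 13.2 and 14.8 CPM in mylz2+ libraries. The mylz2+ values of PAPSS2 were close to each other and far below all sox10+ values (log2 fold change 4.49 ± 0.20). Pcolceb, an enhancer of procollagen cleavage, was at 862 ± 234 CPM in sox10+ cells, against 1.86 ± 3.34 CPM in mylz2+ cells, with a log2 fold change of 8.85, or 12.04 without mylz2+ replicate 4. Genes of the COPII coat, which buds vesicles from the endoplasmic reticulum, were not of one direction. Sar1b, its GTPase, was at 304 ± 50.7 CPM in sox10+ cells, against 115 ± 13.9 CPM in mylz2+ cells, while sec24c, a cargo adaptor, was the 1 member called higher in mylz2+ cells, at 46.8 ± 4.72 CPM in sox10+ cells, against 69.2 ± 9.79 CPM in mylz2+ cells, and was higher in sox10+ cells with library totals.

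Bone, tendon and arch genes were less uniform. Of 22 bone and fibrous matrix genes, 21 passed the filter, 13 were higher in sox10+ cells, 2 were higher in mylz2+ cells and 6 were not called. The type I collagen genes col1a1a, COL1A1 and COL1A2 were at 995 ± 99.6, 897 ± 167 and 1204 ± 134 CPM in sox10+ cells, against 330 ± 102, 356 ± 132 and 660 ± 170 CPM in mylz2+ cells. The 2 members higher in mylz2+ cells were entpd5b, a nucleotidase related to one needed for mineralization, at 8.87 ± 3.29 CPM in sox10+ cells, against 282 ± 8.09 CPM in mylz2+ cells, and PHEX, a peptidase of phosphate balance, at 31.7 ± 12.1 CPM in sox10+ cells, against 342 ± 9.62 CPM in mylz2+ cells. SP7, which marks osteoblasts, was at 1.79, 1.83, 1.71 and 0 CPM in sox10+ libraries, against 0, 0.145, 0.897 and 0.220 CPM in mylz2+ libraries, and was not called, with less than 2 CPM in every library. Of 27 tendon and connective tissue genes, 19 were higher in sox10+ cells, 3 were higher in mylz2+ cells and 5 were not called. TNMD, a tendon membrane protein, was at 24.8 ± 4.68 CPM in sox10+ cells, against 6.12 ± 4.12 CPM in mylz2+ cells. SCX, the transcription factor that defines tendon cells, was not called, and its libraries overlapped, with 7.14, 4.39, 6.01 and 0.308 CPM in sox10+ cells, against 3.57, 4.85, 2.23 and 2.85 CPM in mylz2+ cells. The members higher in mylz2+ cells were COL14A1 and TNC (ENSDARG00000021948), which lie in the matrix around muscle and tendon, and egr1, an early response factor that was not called with library totals and was then 0.19 log2 units higher in sox10+ cells. TNC was not called with library totals either.

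Of 35 genes of arch patterning, 34 passed the filter, 16 were higher in sox10+ cells, 6 were higher in mylz2+ cells and 12 were not called. Over all genes, 21.9% and 22.2% were called in these directions, so the mylz2+ calls are not above the share of all genes. HAND2, which sets ventral arch identity, was at 126, 120, 112 and 118 CPM in sox10+ libraries, against 7.78, 11.5, 8.33 and 6.53 CPM in mylz2+ libraries, and its sox10+ values varied little. Msx3, a homeobox gene, was at 51.1 ± 10.9 CPM in sox10+ cells, against 3.34 ± 0.856 CPM in mylz2+ cells, and jag1b, a dorsal Notch ligand, at 47.4 ± 9.57 CPM, against 24.0 ± 3.25 CPM. The copies of ALX4, a homeobox gene of frontonasal crest, were opposite: ENSDARG00000074442 was at 17.9 ± 4.08 CPM in sox10+ cells, against 0.442 ± 0.529 CPM in mylz2+ cells, and ENSDARG00000088332 at 103 ± 20.1 CPM in sox10+ cells, against 425 ± 52.7 CPM in mylz2+ cells. The first of these copies was chosen after its values were seen. DLX3 and both NR2F1 copies were called higher in mylz2+ cells under TMM scaling and were not called with library totals, where DLX3 and the NR2F1 copy ENSDARG00000052695 had positive log2 fold changes.

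**Figure D2:**
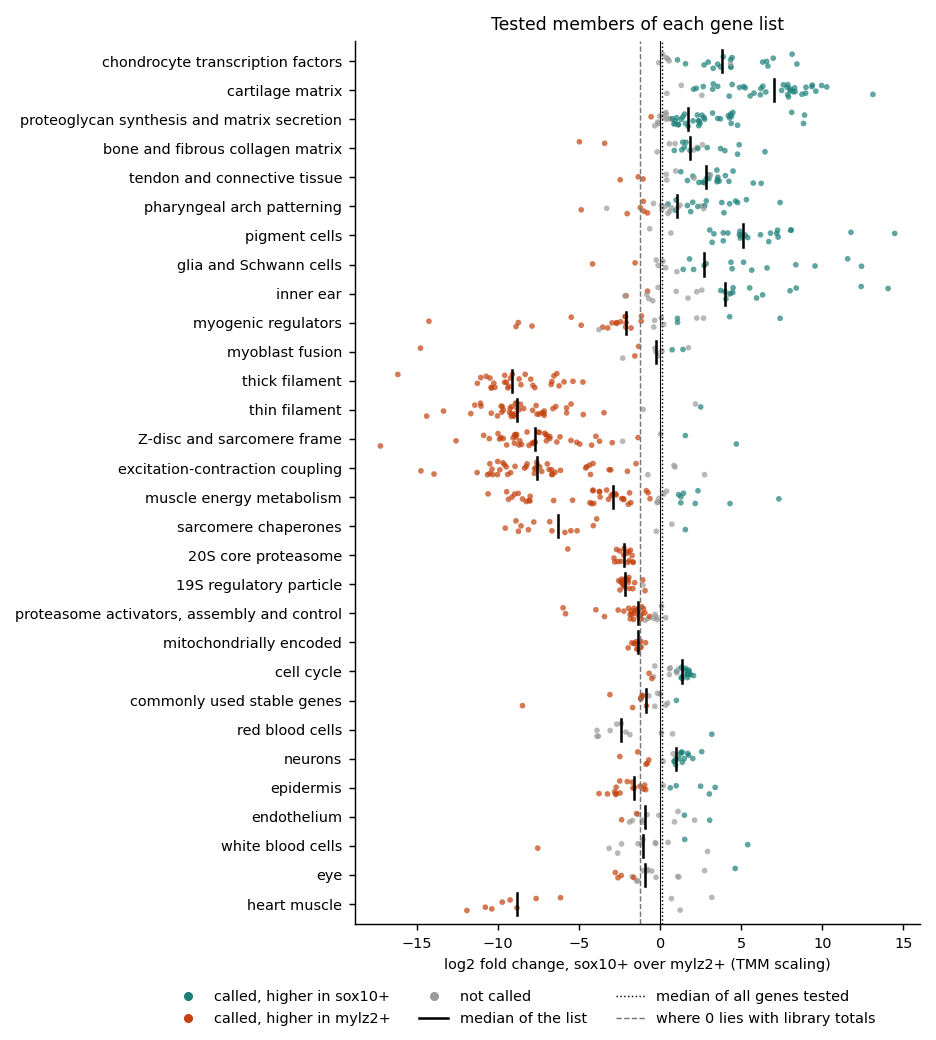
Log2 fold change, sox10+ over mylz2+, of each tested member of 30 gene lists, coloured by call, with the median of each list (black bar), of all genes tested (dotted line) and the place of 0 under library totals (dashed line). The medians ran from 7.01 for cartilage matrix to −9.18 for thick filament genes, and points of genes with no count in a cell type are fitted values, not bounds.

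The sox10+ libraries also held the transcripts of pigment cells. Of 24 pigment cell genes, 22 were higher in sox10+ cells and 2 were not called, with a median log2 fold change of 5.12. The 2 not called, named after their values were seen, were pmelb, at 1.67 CPM in sox10+ cells and 1.05 CPM in mylz2+ cells, and TRPM1, at 1.81 and 2.84 CPM. The 24 genes together made up 0.679 ± 0.153% of the counts in sox10+ libraries, against 0.00391 ± 0.00265% in mylz2+ libraries. Genes of all 3 larval pigment lineages were among them. Gch2, an enzyme of pteridine synthesis in yellow xanthophores, was the most abundant, at 2299, 2450, 3489 and 3071 CPM in sox10+ libraries, against 32.3, 3.91, 2.85 and 3.37 CPM in mylz2+ libraries. Its mylz2+ level was highest in replicate 1, without which the log2 fold change was 9.70 instead of 8.06. XDH, another enzyme of that pathway, was at 38.9, 38.5, 47.5 and 39.7 CPM in sox10+ libraries and had no count in any mylz2+ library. It was at least 1574-fold higher in sox10+ cells on library totals, and its bound with TMM scaling was 9.36 on the log2 scale. Pnp4a, of the purine crystals of iridophores, was at 360 ± 154 CPM in sox10+ cells, against 3.45 ± 3.33 CPM in mylz2+ cells, with a log2 fold change of 6.70, or 7.57 without mylz2+ replicate 4. TYRP1 (ENSDARG00000056151), of melanin synthesis, was at 111, 252, 334 and 397 CPM in sox10+ libraries, against 27.6, 22.1, 4.66 and 6.17 CPM in mylz2+ libraries, without overlap.

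Glial genes were led by proteins of myelin, and whether these transcripts came from glia of the crest or from other glia of the head was not tested. Of 21 glial and Schwann cell genes that passed the filter, of 22, 14 were higher in sox10+ cells, 2 were higher in mylz2+ cells and 5 were not called. Plp1b, a myelin proteolipid, was at 474, 1001, 769 and 805 CPM in sox10+ libraries, against 0, 0, 0.299 and 0.681 CPM in mylz2+ libraries. It was lowest in replicate 1 among the sox10+ libraries and below 1 CPM in every mylz2+ library (log2 fold change 11.57, or 12.82 without mylz2+ replicate 4). Mbpa and mbpb, myelin basic protein genes, were at 572 ± 165 and 445 ± 145 CPM in sox10+ cells, against 0.744 ± 1.49 and 4.60 ± 1.82 CPM in mylz2+ cells. All mylz2+ counts of mbpa were in replicate 1, with 155 counts, and the other mylz2+ libraries had 0. The members that were higher in mylz2+ cells were prx, a scaffold protein of myelinating Schwann cells in mammals, at 21.9 ± 10.7 CPM in sox10+ cells, against 395 ± 81.9 CPM in mylz2+ cells, and PMP22, at 542 ± 38.8 CPM in sox10+ cells, against 1588 ± 286 CPM in mylz2+ cells. PMP22 was not called with library totals. Of 26 inner ear genes, 25 passed the filter, 13 were higher in sox10+ cells, 2 were higher in mylz2+ cells and 10 were not called. The 2 higher in mylz2+ cells were DLX3 and EYA1, a cofactor of ear and muscle development. The list also holds the type IX collagen gene COL9A1, given above with the cartilage collagens. COL9A1 alone held 1.174 ± 0.163% of the counts in sox10+ libraries, most of the share of the inner ear list. That share therefore does not measure ear transcripts alone. Stm, which is needed for otolith shape, was at 994, 943, 1054 and 622 CPM in sox10+ libraries, against 32.1, 0.531, 36.4 and 9.26 CPM in mylz2+ libraries. Otomp, an otolith matrix protein, was at 116 ± 44.0 CPM in sox10+ cells, against 5.11 ± 9.64 CPM in mylz2+ cells, where replicate 3 held 19.6 CPM, and its log2 fold change was 4.50, or 8.51 without that library. Its edgeR adjusted p was 0.0415 over all libraries and lay between 0.0591 and 0.0961 without any one of mylz2+ replicates 1, 2 and 4 or sox10+ replicates 1 to 3.

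**Figure D3:**
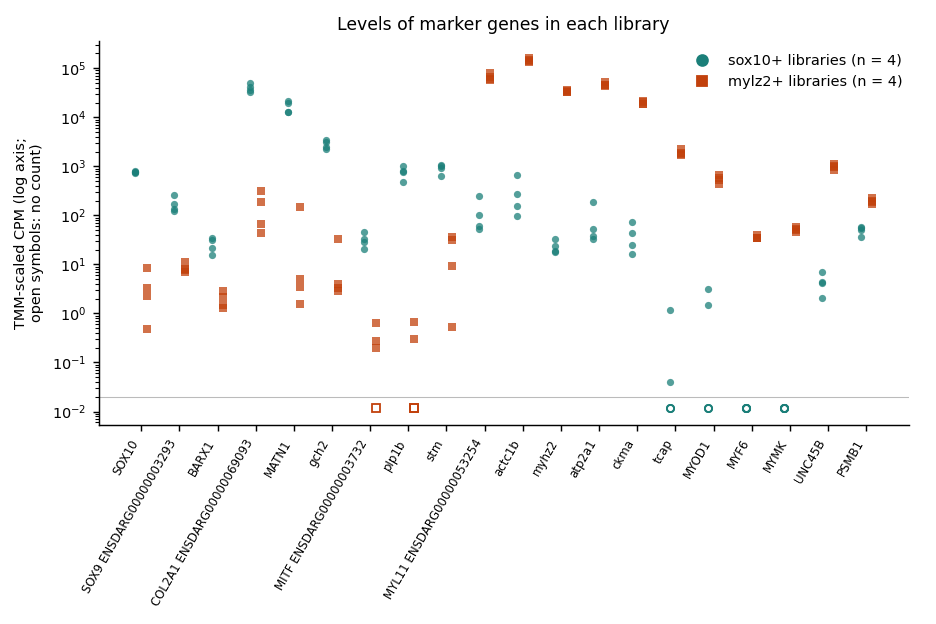
TMM-scaled CPM (log axis) of 20 marker genes in each of 4 sox10+ libraries (circles) and 4 mylz2+ libraries (squares), with open symbols for libraries without a count. SOX10, SOX9, matrix, pigment, myelin and otolith genes were higher in sox10+ libraries and muscle genes in mylz2+ libraries, while PSMB1 lay at 36.0 to 57.9 CPM in sox10+ and 173 to 221 CPM in mylz2+ libraries.

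The sarcomere and its membrane systems made up much of the mylz2+ libraries. The 174 genes of 4 lists (thick filament, thin filament, Z-disc with the sarcomere frame, and excitation-contraction coupling) held 0.524, 0.236, 0.247 and 0.272% of the counts in sox10+ replicates 1 to 4, against 38.9, 39.0, 37.8 and 37.5% in mylz2+ replicates 1 to 4. Of the 167 members tested, 156 were higher in mylz2+ cells, beside 22.2% of all genes, and 154 were with library totals. Sox10+ replicate 1 had the highest or tied highest level among sox10+ libraries for 78 members. These include members without a count in any sox10+ library, such as obsl1a, MYL2 (ENSDARG00000053424) and CHRNB1 (ENSDARG00000022532). Without sox10+ replicate 1 the share in sox10+ cells was 0.251%, and 157 members were higher in mylz2+ cells. The median log2 fold change was then −8.96 instead of −8.22. Near-identical copies of myosin, actin, creatine kinase and troponin genes may share reads, so the split between copies is uncertain.

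All 30 thick filament genes were higher in mylz2+ cells, with a median log2 fold change of −9.18. Myhz2, a fast myosin heavy chain, was at 32.7, 17.8, 18.7 and 23.6 CPM in sox10+ libraries, against 35734, 33726, 32986 and 33002 CPM in mylz2+ libraries. Its values were steady within each cell type, and the log2 fold change was −10.51 ± 0.39. Myhz1.1, a further fast heavy chain, was at 260, 12.3, 5.89 and 7.55 CPM in sox10+ libraries, against 22343, 15349, 15104 and 13721 CPM in mylz2+ libraries, with log2 fold changes of −7.86 and, without sox10+ replicate 1, −10.91. MYL2 (ENSDARG00000053424), a regulatory light chain of heart and slow muscle in mammals, had no count in any sox10+ library and was at 111, 181, 124 and 128 CPM in mylz2+ libraries, at least 1694-fold lower in sox10+ cells. Of 46 thin filament genes, 44 passed the filter, 1 was higher in sox10+ cells, 41 were higher in mylz2+ cells and 2 were not called. Actc1b, an alpha actin, was the most abundant gene of the mylz2+ libraries, with 0.0439 ± 0.0361% of the counts in sox10+ cells, against 9.37 ± 0.451% in mylz2+ cells. It was at 651, 95.3, 152 and 272 CPM in sox10+ libraries, against 147551, 160173, 138715 and 132565 CPM in mylz2+ libraries, with a log2 fold change of −8.95, or −9.68 without sox10+ replicate 1. TPM2, a muscle tropomyosin, was at 38.1 ± 14.5 CPM in sox10+ cells, against 13132 ± 1479 CPM in mylz2+ cells. Tpm4a, a tropomyosin that is also made outside muscle, was the member higher in sox10+ cells, at 45.1 ± 11.4 CPM, against 7.98 ± 1.02 CPM in mylz2+ cells.

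Of 48 genes of the Z-disc and sarcomere frame, 46 passed the filter, 2 were higher in sox10+ cells, 42 were higher in mylz2+ cells and 2 were not called. The median log2 fold change was −7.74, and −7.63 with genes absent from one cell type set at their bound under TMM scaling. The 2 higher in sox10+ cells were CRYAB (ENSDARG00000101380) and a copy of FHL1, both described below. Obsl1a, related to the obscurins that tie the sarcomere to its membranes, had no count in any sox10+ library and was at 290, 262, 248 and 346 CPM in mylz2+ libraries, at least 3607-fold lower in sox10+ cells. Tcap, the cap of titin at the Z-disc, was at 1.19, 0.0397, 0 and 0 CPM in sox10+ libraries, against 1721, 2205, 1758 and 1835 CPM in mylz2+ libraries, with a log2 fold change of −12.60, or −16.83 without sox10+ replicate 1. TTN, titin itself, was at 15.3 ± 7.07 CPM in sox10+ cells, against 5772 ± 941 CPM in mylz2+ cells, for ENSDARG00000028213, and at 14.0 ± 3.98 CPM, against 3015 ± 639 CPM, for ENSDARG00000000563. XIRP2 (ENSDARG00000071113), which marks sites of muscle attachment, was at 8.49, 6.33, 11.9 and 6.78 CPM in sox10+ libraries, against 791, 657, 592 and 764 CPM in mylz2+ libraries. Of 50 genes of excitation-contraction coupling, 47 passed the filter, 0 were higher in sox10+ cells, 43 were higher in mylz2+ cells and 4 were not called. Atp2a1, the calcium pump of the sarcoplasmic reticulum, was at 189, 53.9, 32.2 and 37.6 CPM in sox10+ libraries, against 44046, 52998, 45041 and 46130 CPM in mylz2+ libraries, with a log2 fold change of −9.23, or −10.14 without sox10+ replicate 1. The parvalbumins pvalb4 and pvalb2, which buffer calcium in fast fibres, were at 4.89 ± 4.42 and 19.7 ± 31.4 CPM in sox10+ cells, against 3546 ± 740 and 3413 ± 689 CPM in mylz2+ cells. The log2 fold change of pvalb4 was −9.50, or −10.29 without sox10+ replicate 4, and that of pvalb2 −7.44, or −9.70 without sox10+ replicate 1, which held 66.8 CPM. CHRNB1 (ENSDARG00000022532), a subunit of the acetylcholine receptor at the nerve-muscle junction, had no count in any sox10+ library and was at 64.0, 37.5, 45.9 and 55.0 CPM in mylz2+ libraries, at least 640-fold lower in sox10+ cells.

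Of 31 myogenic regulators, 30 passed the filter, 4 were higher in sox10+ cells, 19 were higher in mylz2+ cells and 7 were not called, and with library totals 7 were higher in sox10+ cells and 15 in mylz2+ cells. MYOD1, which commits cells to muscle, was at 3.18, 1.47, 0 and 0 CPM in sox10+ libraries, against 442, 668, 520 and 583 CPM in mylz2+ libraries, with a log2 fold change of −8.90, or −10.12 without sox10+ replicate 1. MYF5, the earliest factor of that family, was below 2 CPM in every library, at 0, 0, 0 and 1.99 CPM in sox10+ libraries, against 0.615, 0.845, 0.239 and 0.922 CPM in mylz2+ libraries. It was not called over all libraries (edgeR adjusted p = 0.888) and was called higher in mylz2+ cells without sox10+ replicate 4 (edgeR adjusted p = 0.00382). MYF6, a late factor of the family, chosen after its values were seen, had no count in any sox10+ library and was at 35.0, 39.3, 34.1 and 35.1 CPM in mylz2+ libraries. MEF2D and MEF2C (ENSDARG00000029764), transcription factors of muscle differentiation, were at 75.4 ± 23.8 and 8.77 ± 3.72 CPM in sox10+ cells, against 490 ± 44.0 and 395 ± 63.6 CPM in mylz2+ cells. The members higher in sox10+ cells were SOX6, CTCF, a chromatin architecture protein, and both copies of PAX7, a factor of muscle stem cells that is also made in neural crest and in yellow pigment cells. PAX7 (ENSDARG00000070818) was at 130, 167, 158 and 163 CPM in sox10+ libraries, against 1.61, 1.04, 0.199 and 0.801 CPM in mylz2+ libraries, and the other copy (ENSDARG00000100398) at 35.7 ± 5.27 CPM, against 1.83 ± 0.442 CPM.

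Of 11 genes of myoblast fusion, 2 were higher in sox10+ cells, 3 were higher in mylz2+ cells and 6 were not called, shares near the 21.9% and 22.2% of all genes called in these directions. MYMK, or myomaker, the muscle membrane protein that drives fusion, had no count in any sox10+ library and was at 46.0, 52.0, 51.4 and 57.1 CPM in mylz2+ libraries, at least 649-fold lower in sox10+ cells. The adhesion receptors of fusing fast fibres were present in both cell types. Jam2a was at 13.3, 27.9, 12.7 and 33.0 CPM in sox10+ libraries, against 59.5, 78.6, 63.4 and 56.0 CPM in mylz2+ libraries, and JAM3 (ENSDARG00000061794) at 25.3 ± 9.22 CPM, against 63.7 ± 8.09 CPM. Both were called under TMM scaling and not with library totals. The other JAM3 copy (ENSDARG00000114589) was not called, with overlapping values of 7.75 ± 5.46 CPM in sox10+ cells and 9.29 ± 1.96 CPM in mylz2+ cells. DOCK1 and CRK, of the signalling to actin in fusion and in cell migration, were the members higher in sox10+ cells, at 48.6 ± 13.1 and 44.1 ± 8.41 CPM, against 18.3 ± 4.84 and 26.5 ± 1.78 CPM in mylz2+ cells.

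Energy genes of muscle were split between isoforms. Of 50 members, 49 passed the filter, 8 were higher in sox10+ cells, 36 were higher in mylz2+ cells and 5 were not called, with a median log2 fold change of −2.94. Ckma and ckmb, muscle creatine kinases, were at 39.2 ± 24.7 and 38.6 ± 28.3 CPM in sox10+ cells, against 19898 ± 1252 and 25493 ± 1792 CPM in mylz2+ cells. ALDOA (ENSDARG00000034470), the muscle aldolase, was at 16.9, 2.81, 5 and 2.51 CPM in sox10+ libraries, against 5357, 5354, 4141 and 4606 CPM in mylz2+ libraries, with a log2 fold change of −9.48, or −10.45 without sox10+ replicate 1. ALDOC (ENSDARG00000057661), an aldolase of the brain in mammals, was at 13.1, 1.05, 2.24 and 4.31 CPM in sox10+ libraries, against 0, 0, 0.120 and 0 CPM in mylz2+ libraries. Its log2 fold change was 7.33, or 6.32 without sox10+ replicate 1, and without mylz2+ replicate 3 no mylz2+ count remained. GAPDH, the glycolytic enzyme often taken as a constant reference, was at 33.4, 18.7, 13.7 and 15.9 CPM in sox10+ libraries, against 7862, 8185, 6632 and 6960 CPM in mylz2+ libraries, a log2 fold change of −8.50 ± 0.41. GAPDHS, the other gene of this enzyme and chosen after its values were seen, lay the other way, at 625 ± 88.5 CPM in sox10+ cells, against 257 ± 70.8 CPM in mylz2+ cells. Mb, myoglobin, which stores oxygen in red fibres of mammals, was higher in sox10+ cells, at 90.2, 72.0, 103 and 56.3 CPM, against 3.88, 5.67, 4.11 and 2.58 CPM in mylz2+ libraries. COX4I2, an isoform of a respiratory chain subunit, was at 21.9 ± 5.47 CPM in sox10+ cells, against 4.35 ± 1.75 CPM in mylz2+ cells.

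Of 17 chaperones of the sarcomere, 16 passed the filter, 1 was higher in sox10+ cells, 13 were higher in mylz2+ cells and 2 were not called, with a median log2 fold change of −6.28. The myosin folding machine of UNC45B, hsp90aa1.1 and SMYD1 was high in muscle. UNC45B was at 7, 4.20, 2.06 and 4.41 CPM in sox10+ libraries, against 850, 999, 976 and 1124 CPM in mylz2+ libraries, and its partner hsp90aa1.1 at 18.2 ± 10.3 CPM in sox10+ cells, against 8729 ± 712 CPM in mylz2+ cells. SMYD1 (ENSDARG00000091253), a methyltransferase that works with them, was at 4.53 ± 2.95 CPM in sox10+ cells, against 1953 ± 176 CPM in mylz2+ cells. CRYAB (ENSDARG00000101380), a small heat shock protein, was the member called higher in sox10+ cells, at 4.30 ± 2.15 CPM, against 1.47 ± 0.219 CPM in mylz2+ cells. Its edgeR adjusted p was 0.0297 with all libraries and 0.0511 or more without any one of the mylz2+ libraries or of sox10+ replicates 1 and 2.

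The proteasome, the protease that degrades ubiquitin-tagged proteins, was measured as a 20S core with the proteolytic chambers and a 19S particle that recognizes and unfolds substrates. All 17 genes of the 20S core were higher in mylz2+ cells under TMM scaling, with a median log2 fold change of −2.22, and 13 were with library totals, with none called higher in sox10+ cells. Of 24 genes of the 19S particle, 23 were higher in mylz2+ cells and 1 was not called under TMM scaling, with a median of −2.17, the exception being PSMD5, an assembly chaperone named after its values were seen, and 20 were higher in mylz2+ cells with library totals. The medians of these lists were 2.33 and 2.28 log2 units below the median of all genes under TMM scaling, and 2.33 and 2.27 below it with library totals. A change of scaling moves all genes by nearly the same amount. The likeness of these distances was therefore fixed in advance and is not a test of the scaling. PSMB1, the core subunit that is mutated in the larvae not used here, was at 36.0, 51.1, 54.5 and 57.9 CPM in sox10+ libraries, against 173, 221, 201 and 183 CPM in mylz2+ libraries. The groups did not overlap, and the log2 fold change was −1.96 ± 0.19 under TMM scaling and −0.71 with library totals (edgeR adjusted p = 2.21e-05 and 0.00745). PSMB7, which carries the trypsin-like activity, was at 99.7 ± 25.8 CPM in sox10+ cells, against 722 ± 86.5 CPM in mylz2+ cells, the highest core subunit there. PSMC6, an ATPase of the 19S base, was at 103, 101, 119 and 123 CPM in sox10+ libraries, against 506, 624, 624 and 571 CPM in mylz2+ libraries, and PSMD1, its scaffold, at 159 ± 11.5 CPM in sox10+ cells, against 703 ± 34.0 CPM in mylz2+ cells.

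Core and 19S genes differed by similar amounts. Apart from psma6l, at under 5 CPM in every library, the log2 fold changes of the core genes lay between −2.86 and −1.67. Of 7 immunoproteasome genes, which encode the subunits induced by interferon, 2 passed the filter and neither was called. Of 33 activators, assembly factors and regulators, 25 were higher in mylz2+ cells and 8 were not called under TMM scaling, while 7 were higher in sox10+ cells and 10 higher in mylz2+ cells with library totals. PSME1 and PSME2, subunits of an alternative cap, chosen after their values were seen, were at 0.218 and 0.113 CPM in sox10+ cells, against 14.0 and 6.73 CPM in mylz2+ cells. NFE2L1, a factor that induces proteasome genes, likewise chosen afterwards, was at 2.48 ± 2.59 CPM in sox10+ cells, against 26.9 ± 2.18 CPM in mylz2+ cells, and its copy nfe2l1b at 29.1 ± 3.98 CPM, against 45.5 ± 5.10 CPM, a direction that library totals turned round. The polyubiquitin genes UBB and ubb were at 160 ± 25.2 and 724 ± 96.0 CPM in sox10+ cells, against 966 ± 95.6 and 2632 ± 41.7 CPM in mylz2+ cells. XBP1, a factor of the unfolded protein response, was at 335 ± 52.8 CPM in sox10+ cells, against 1293 ± 86.7 CPM in mylz2+ cells. HSPA5, the chaperone of the endoplasmic reticulum, was at 594 ± 44.5 CPM, against 1312 ± 72.9 CPM, and was not called with library totals, with a log2 fold change of 0.10.

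**Figure D4:**
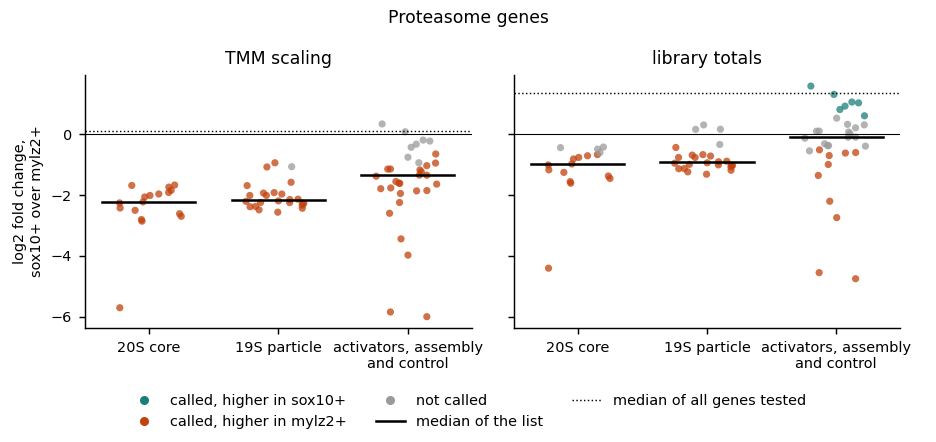
Log2 fold change, sox10+ over mylz2+, of proteasome genes under TMM scaling (left) and with library totals (right), coloured by call, with list medians (bars) and the median of all genes tested (dotted). The core median was −2.22 under TMM scaling and −0.98 with library totals. It lay 2.33 log2 units below that of all genes in both, since a change of scaling moves all genes nearly alike.

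Mitochondrial, cell cycle and common reference genes show how far a call can rest on the scaling. All 13 protein genes of the mitochondrial genome were higher in mylz2+ cells under TMM scaling, with a median log2 fold change of −1.35, and 1, mt-atp8, was with library totals. MT-CO1, a subunit of cytochrome oxidase, was at 3451, 2701, 2738 and 4128 CPM in sox10+ libraries, against 5042, 10374, 7437 and 6637 CPM in mylz2+ libraries, and its log2 fold change was 0.07 with library totals. As shares of all counts, the mitochondrial genes held 1.65 ± 0.242% in sox10+ libraries, against 1.83 ± 0.491% in mylz2+ libraries. Of 25 cell cycle genes, 24 passed the filter, and 15 were higher in sox10+ cells, 2 were higher in mylz2+ cells and 7 were not called, while all 24 were higher in sox10+ cells with library totals. PCNA, the sliding clamp of DNA replication, was at 157, 185, 194 and 269 CPM in sox10+ libraries, against 80.8, 53.3, 74.6 and 44.4 CPM in mylz2+ libraries, and MCM2, of the replicative helicase, at 112 ± 18.7 CPM, against 32.9 ± 15.4 CPM. The 2 members higher in mylz2+ cells under TMM scaling were the cell cycle inhibitors cdkn1ca and CDKN1B (ENSDARG00000054271), by 0.69 and 0.52 log2 units, and both were called higher in sox10+ cells with library totals.

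Of 15 genes often used as references, 1 was higher in sox10+ cells, 8 were higher in mylz2+ cells and 6 were not called under TMM scaling, and with library totals 6 were higher in sox10+ cells and 2 in mylz2+ cells. Actb1, a cytoplasmic actin, was at 1264, 1320, 2029 and 2039 CPM in sox10+ libraries, against 1624, 1652, 1670 and 1692 CPM in mylz2+ libraries. Its values overlapped, and it was not called (edgeR adjusted p = 0.993), but with library totals it was 1.25 log2 units higher in sox10+ cells. Actb2, the other cytoplasmic actin, was at 2465 ± 655 CPM in sox10+ cells, against 1234 ± 98.0 CPM in mylz2+ cells. The genes of at least 200 CPM in both cell types with the smallest log2 fold changes were actb1, ptmaa, ncl, nr1d2a, tdh and FZD7 (ENSDARG00000060004), and with library totals all 6 were higher in sox10+ cells, by 1.21 to 1.28 log2 units.

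Some genes with many counts were detected in a single cell type. In 65 genes, of which 58 had a symbol, every sox10+ library held counts, with a mean of at least 100, and no mylz2+ library held any. The reverse was true of 51 genes, 43 with a symbol. Itih3a.2, an inter-alpha-trypsin inhibitor chain that binds hyaluronan, was at 697, 483, 456 and 525 CPM in sox10+ libraries and had no count in mylz2+ libraries, at least 20493-fold higher. Emilin3a, a matrix glycoprotein of the EMILIN family, was at 513, 497, 385 and 496 CPM in sox10+ libraries, at least 17987-fold higher. Their sox10+ values were even, with 36089 counts or more for both in each sox10+ library. Those counts do not measure how well the mylz2+ libraries, from fewer sorted cells and a separate count table, could detect these genes. EDNRB (ENSDARG00000089334), the endothelin receptor of pigment cell precursors, was at 17.1, 22.9, 20.1 and 19.2 CPM in sox10+ libraries. It was at least 759-fold higher on library totals, and its bound with TMM scaling was 8.31 on the log2 scale. On the other side, TGM2 (ENSDARG00000070157), a transglutaminase, was at 173, 182, 149 and 138 CPM in mylz2+ libraries, at least 2011-fold lower in sox10+ cells. CAVIN1 (ENSDARG00000076411), a coat protein of caveolae, was at 124, 111, 89.2 and 136 CPM in mylz2+ libraries, at least 1446-fold lower in sox10+ cells, and gja2, a connexin, at 59.5, 58.9, 62.5 and 68.0 CPM, at least 783-fold lower.

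Many zebrafish genes have a second copy from a genome duplication in the ancestor of teleost fish. Of 493 pairs with a and b symbols, both copies tested, 25 were called in opposite directions, 102 in the same direction (52 in sox10+ and 50 in mylz2+ cells), 243 had 1 copy called and 123 neither. Over all genes 21.9% and 22.2% were called in these directions, so opposite calls are given as a description of single pairs and not as a property of duplicates. The opposite calls held under all 5 scalings for 6 of these pairs. Among 1310 pairs of identifiers that share a human symbol, an additional definition made after the names were seen, 104 were opposite, 43 of them under all 5 scalings. FHL1, a LIM domain protein of muscle, came first when pairs were ordered by the smaller of their 2 changes: ENSDARG00000056653 was at 21.7 ± 9.79 CPM in sox10+ cells, against 0.835 ± 0.472 CPM in mylz2+ cells, and ENSDARG00000071498 at 1.56 ± 1.19 CPM in sox10+ cells, against 1512 ± 173 CPM in mylz2+ cells. Tns2a, a tensin of focal adhesions, was at 48.4 ± 14.0 CPM in sox10+ cells, against 3.91 ± 1.94 CPM in mylz2+ cells, and tns2b at 4.88 ± 2.34 CPM, against 637 ± 116 CPM. UGP2, which makes UDP-glucose for glycogen and for proteoglycan chains, had one copy (ENSDARG00000008200) at 129 ± 15.7 CPM in sox10+ cells, against 12.4 ± 2.07 CPM in mylz2+ cells, and another (ENSDARG00000005578) at 3.50 ± 2.25 CPM, against 140 ± 14.0 CPM. CRABP2, a carrier of retinoic acid, had one copy (ENSDARG00000030449) at 72.8 ± 13.6 CPM, against 6.25 ± 1.62 CPM, and another (ENSDARG00000073978) at 5.19 ± 2.02 CPM in sox10+ cells, against 49.7 ± 11 CPM in mylz2+ cells. CAVIN1 had opposite calls too, with ENSDARG00000059362 at 36.6 ± 5.25 CPM in sox10+ cells, against 3.90 ± 3.79 CPM in mylz2+ cells (log2 fold change 3.23, or 4.12 without mylz2+ replicate 1), and the copy named above without a count in sox10+ libraries. Of the pairs plotted, CLEC3B (ENSDARG00000099500), JDP2 (ENSDARG00000040137) and PHLDB2 (ENSDARG00000079889) each held a copy whose call was lost when some single libraries were left out.

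**Figure D5:**
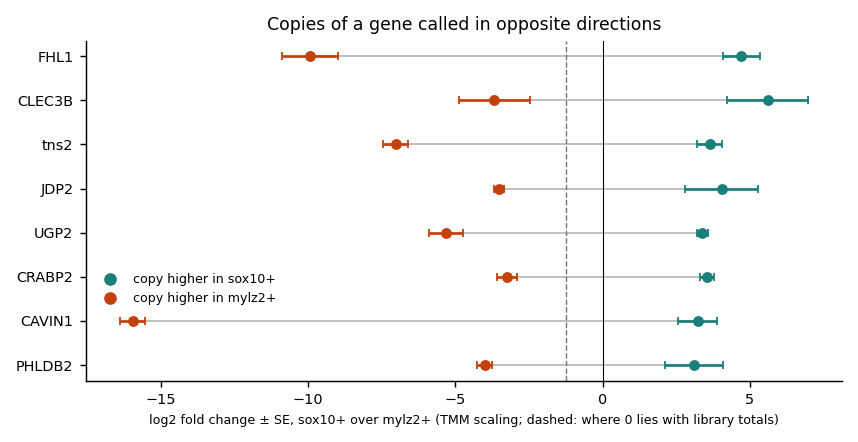
Log2 fold change ± SE, sox10+ over mylz2+, of both members of 8 gene pairs called in opposite directions, ordered by the smaller of the 2 changes, with the place of 0 under library totals dashed. Only tns2 is a pair with a and b symbols, and the others are pairs that share a human symbol. FHL1 copies lay at 4.70 and −9.92. The CAVIN1 copy at the far left had no count in sox10+ libraries, so its place is a fitted value and its error bar bounds nothing. CLEC3B was not opposite under all scalings, and CLEC3B, JDP2 and PHLDB2 lost a call when some single libraries were left out.

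Markers of other cell types that a gate could hold were at low levels, with some exceptions, and their part in the results was not tested. The 17 genes of the heart list held 0.00527 ± 0.00117% of the counts in sox10+ libraries, against 0.986 ± 0.0788% in mylz2+ libraries, and 8 of the 11 that passed the filter were higher in mylz2+ cells. The list shares members with the muscle lists above, among them atp2a2a, so its share does not measure heart transcripts alone. The defining heart genes MYL7 and nppa, named outside the rule, had higher means in sox10+ libraries, at 1.01 and 0.697 CPM. In mylz2+ libraries they were at 0.0739 and 0.0747 CPM, and only these values were near the floor. By edgeR, 0 members of the heart list were called higher in sox10+ cells under TMM scaling or with library totals, and DESeq2 called 1. The members with the highest levels were the myosin gene MYH6 (ENSDARG00000079564), at 2.66 ± 1.18 CPM in sox10+ cells, against 10407 ± 1072 CPM in mylz2+ cells, and then the light chain myl4, the calcium pump atp2a2a and the troponin TNNI1 (ENSDARG00000052708). Without sox10+ replicate 4, the log2 fold changes of myl4 and TNNI1 were −11.66 and −9.75, against −10.80 and −8.84 over all libraries. Of 22 epidermal genes, 5 were higher in sox10+ cells, 16 were higher in mylz2+ cells and 1 was not called. With library totals, 6 were called in each direction. Over all genes, 21.9% were called higher in sox10+ cells under TMM scaling, near the share of this list, and 22.2% higher in mylz2+ cells. The list held 0.441 ± 0.122% of the counts in sox10+ libraries, against 0.444 ± 0.113% in mylz2+ libraries. With library sizes scaled by TMM, the means were 0.285 against 0.679%. Krt4, a keratin of the skin surface, was at 733, 425, 1285 and 555 CPM in sox10+ libraries, against 4975, 2707, 4384 and 4886 CPM in mylz2+ libraries, and krt8, a simple epithelial keratin, at 568 ± 131 CPM, against 54.2 ± 21.8 CPM.

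Of 21 neuronal genes, 14 were higher in sox10+ cells, 5 were higher in mylz2+ cells and 2 were not called. Over all genes, 21.9% were called higher in sox10+ cells and 22.2% higher in mylz2+ cells, the latter near the share of this list. Neuronal genes held 0.125 ± 0.0180% of the counts in sox10+ libraries, against 0.0424 ± 0.00598% in mylz2+ libraries. With library sizes scaled by TMM, the means were closer, at 0.0811 against 0.0651%. ELAVL3, a pan-neuronal RNA-binding protein, was at 198 ± 17.9 CPM in sox10+ cells, against 58.9 ± 7.56 CPM in mylz2+ cells. Photoreceptor and lens genes held 0.417% of the counts of sox10+ replicate 2, between 0.0191 and 0.0378% of the other sox10+ libraries and a mean of 0.0508 ± 0.0246% in mylz2+ libraries, and 11 of the 16 eye genes tested were not called. Of 18 red blood cell genes, 11 passed the filter and 1 was called, cahz, a carbonic anhydrase, higher in sox10+ cells at 68.2 ± 12.5 CPM, against 7.51 ± 3.21 CPM in mylz2+ cells. Without sox10+ replicate 1, 6 members of that list were called higher in mylz2+ cells. Endothelial genes held 0.0150 ± 0.00335% of the counts in sox10+ libraries, against 0.00533 ± 0.00340% in mylz2+ libraries, and white blood cell genes 0.0337 ± 0.00658%, against 0.00972 ± 0.00410%. With library sizes scaled by TMM, these means were 0.00975 against 0.00806%, and 0.0218 against 0.0150%. The white blood cell list shares csf1ra with the pigment list, so its share does not measure white blood cells alone. Csf1ra was called higher in sox10+ cells (log2 fold change 5.40, or 6.74 without mylz2+ replicate 2). Of the 14 endothelial and 13 white blood cell genes that passed the filter, 10 in each list were not called. Over all genes, 44.1% were called in either direction.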

How the data were processed

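RNA-Seq was carried out on sorted cells with full-length cDNA amplification (SMART-Seq HT) and Nextera XT libraries. The authors aligned reads to GRCz11 with STAR and deposited raw counts per Ensembl gene, 1 table for each cell type, without normalization. The counting tool, annotation release and strandedness are not given in the sources used here, so overlapping and antisense genes are uncertain. The tables were joined by identifier. Of 32520 identifiers, 29201 had a symbol and 6136 shared one.

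Genes were filtered with filterByExpr (minimum count 10, minimum total 15), scaled by TMM and tested by quasi-likelihood in edgeR 4.0.16 under R 4.3.3, sox10+ over mylz2+ in the 8 wild-type/heterozygous libraries, with Benjamini-Hochberg adjustment at 0.05. Tests were also run on simulated counts with equal numbers of genes raised and lowered, which cannot speak to the scaling of these data. Tables and figures used Python 3.11.15, pandas 2.3.3, numpy 2.4.6 and matplotlib 3.10.9. DESeq2 1.42.0, 4 other scalings, filters, thresholds, a replicate block, thinning and leaving out each library were alternatives. The SE of a log2 fold change was its absolute size over the square root of the quasi-likelihood F statistic. It bounds nothing for genes without a count in one cell type.

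The members and gene lists were chosen with earlier results of these data known. Named genes were the reporters' genes and psmb1, the 10 genes with the largest change in each direction (a mean of at least 100 counts, no overlap, a symbol), the 10 most abundant of each cell type, up to 4 members of each list by level and up to 4 called the other way, members named by the study, up to 8 opposite pairs, up to 6 genes without a count in one cell type and up to 6 stable genes of at least 200 CPM. Fold bounds against 0 counts used library totals. With TMM scaling these bounds are lower for genes of sox10+ cells and higher for genes of mylz2+ cells. The floor was 3 counts per library, worth 0.0382 to 0.0547 CPM before TMM scaling. This floor covers counting error only, since amplified reads are not independent molecules. Sequences and promoters were not analysed here. Some genes of the lists are not reported here by name.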

Additional observations from a re-analysis of the deposited data

Results flagged for a closer look

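In groups of 4 libraries, the distance of the highest or lowest value from the nearest other, over the range of the group, was compared with Dixon's 95% critical value for 4 values, which chance passes in about 1 of 20 comparisons. Many named genes are also members of the lists, so the comparisons are not independent and this rate is only a rough guide. Of 140 comparisons of library measures such as total counts, list shares and named genes within a cell type, 13 passed.

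Sox10+ replicate 1 stood apart in 6 of them, each time by more muscle transcripts. Thick filament genes held 0.171% of its counts, against 0.0316 to 0.0529% in the other sox10+ libraries, and genes of excitation-contraction coupling 0.0806%, against 0.0440 to 0.0472%. MYL11 (ENSDARG00000002589) was at 15.3 CPM, against 0.109 to 2.2 CPM, and atp2a1 at 189 CPM, against 32.2 to 53.9 CPM. The myosin heavy chains myhb and myhz1.1 were at 112 and 260 CPM, against 19.9 to 28.8 and 5.89 to 12.3 CPM. These levels lie below those of every mylz2+ library.

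Sox10+ replicate 3 stood apart in 4 comparisons. Muscle energy genes held 0.517% of its counts, against 0.411 to 0.424% in the other sox10+ libraries, and neuronal genes 0.152%, against 0.114 to 0.120%. Emilin3a was lower, at 385 CPM, against 496 to 513 CPM, and XDH higher, at 47.5 CPM, against 38.5 to 39.7 CPM. In sox10+ replicate 2, eye genes held 0.417% of the counts, against 0.0191 to 0.0378% in the other sox10+ libraries.

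Among mylz2+ libraries, epidermal genes held 0.276% of the counts in replicate 2, against 0.492 to 0.514% in the others. MATN1 was at 146 CPM in mylz2+ replicate 4, against 1.57 to 5.01 CPM in the others.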

How the results depend on the processing

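The main dependence was on scaling. With library totals alone, 10625 genes were higher in sox10+ cells and 1891 in mylz2+ cells, and pairs called in the same direction numbered 219. The log2 fold changes of 16 named genes then turned positive, all of them below 0 with TMM: ENSDARG00000080337 0.95, sec24c 0.68, egr1 0.19, NR2F1 (ENSDARG00000052695) 0.20, DLX3 0.46, HSPA5 0.10, MT-CO1 0.071, cdkn1ca 0.55, CDKN1B (ENSDARG00000054271) 0.73, eef1a1l1 0.051, RBFOX3 (ENSDARG00000010083) 0.38, SNAP25 (ENSDARG00000058117) 0.44, krt91 0.35, ptmaa 1.25, ncl 1.22 and FZD7 (ENSDARG00000060004) 1.21. The number called in mylz2+ cells was 4423 under RLE scaling, 4064 under upper-quartile scaling and 4321 with TMM factors made without the 100 most abundant genes. DESeq2 called 10695 genes of 23100, and of the 8926 called by edgeR it called 8907 in the same direction and 0 in the opposite one.

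A test against a log2 fold change of 1 called 4988 genes (2482 higher in sox10+ cells, 2506 in mylz2+ cells), by construction fewer, with 7 opposite, 62 same-direction and 156 single-copy pairs. Opposite pairs numbered 14 at an adjusted p under 0.01 and 16 where both copies also had to differ by 1 log2 unit or more, and same-direction pairs 65 with at least 10 counts in every library. Causes of these changes other than construction were not tested. Leaving out each library in turn gave 7922 to 9159 genes called, 3883 to 4440 higher in sox10+ cells and 4039 to 4719 in mylz2+ cells. Over all lists, 226 to 239 members were then higher in sox10+ cells and 352 to 362 in mylz2+ cells, and 21 to 26 pairs were opposite, 92 to 105 in the same direction and 224 to 240 with 1 copy called.

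A replicate block in the model left 7868 genes called, 3753 higher in sox10+ cells and 4115 in mylz2+ cells. Same-numbered libraries of the cell types did not deviate together (correlations −0.023 to 0.095), and 1 of 4 sox10+ libraries was closest to its own number. With 4 libraries of each cell type, these correlations cannot tell whether same-numbered samples were paired. Of 198 named genes called, 148 kept their call and direction in each of the 20 alternatives that tested them, and 158 were tested with at least 10 counts in every library. The planned promoter motif shares were not run, for want of promoter sequence.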

Other observations

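Several transcripts were abundant in both cell types. ENSDARG00000080337, which the tables used here give no symbol, held 2.66 ± 0.478% of the counts in sox10+ libraries, against 1.38 ± 0.305% in mylz2+ libraries. Malat1, a nuclear non-coding RNA, was at 14471, 14540, 4265 and 9024 CPM in sox10+ libraries, against 8689, 14330, 9835 and 8119 CPM in mylz2+ libraries. Its values overlapped between the cell types, and it was lowest in sox10+ replicate 3.

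Both fibronectin genes were higher in sox10+ cells. FN1 (ENSDARG00000019815) was at 268, 173, 193 and 210 CPM in sox10+ libraries, against 9.49, 8.54, 20.3 and 6.25 CPM in mylz2+ libraries. FN1 (ENSDARG00000006526) was at 322, 331, 206 and 139 CPM in sox10+ libraries, against 67.2, 9.48, 8.31 and 1.06 CPM in mylz2+ libraries, with the highest mylz2+ value in replicate 1. The log2 fold change of the second copy was 3.54 ± 1.01, or 5.30 without mylz2+ replicate 1, and it was not called without mylz2+ replicate 2 or 3. COL12A1 (ENSDARG00000078322), a collagen of fibril surfaces in tendon and muscle sheaths, was at 211 ± 23.1 CPM in sox10+ cells, against 26.2 ± 6.5 CPM in mylz2+ cells.

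SDHA, a subunit of succinate dehydrogenase that is used as a reference gene, was at 90.4, 78.6, 89.3 and 113 CPM in sox10+ libraries, against 834, 819, 670 and 869 CPM in mylz2+ libraries. This gene of the nuclear genome differed by −3.10 ± 0.19 on the log2 scale, and by −1.86 with library totals, where 1 of the 13 mitochondrially encoded genes was called.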
